A study of Drosophila melanogaster with 24 samples.

Results

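The genes described here are 9 members of the fly JAK-STAT pathway and its stress-induced output: the ligand upd3, the receptor dome, the kinase hop, the transcription factor Stat92E, the feedback inhibitor Socs36E, the Turandot genes TotA, TotC and TotM, and the virus-induced gene vir-1. They were taken by symbol, and all 9 have a row among the 16995 genes of the count table. The study asked how the brain transcriptome of female and male w1118 flies differs at control and at 1, 2 and 4 hr after traumatic brain injury (TBI). All flies were mated adults of the white-eyed w1118 strain, 10 to 14 days old. The injured groups received a single strike of a high-impact trauma device with its arm set at 45°, which throws the whole fly against the vial wall and so is not confined to the head. The control groups carried the same genotype and were not struck. RNA came from single brains, and each of the 8 groups (4 times for each sex label) has 3 libraries, described in the methods as biological replicates. Each library holds tags read near the 3′ end of polyadenylated RNA, so levels are compared between libraries for 1 gene and not between genes.

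In Drosophila, the unpaired cytokines bind the receptor Domeless, which activates the Janus kinase Hopscotch and through it the transcription factor Stat92E. Stat92E switches on Socs36E, which dampens the pathway, and with other stress signals it drives the Turandot genes, which encode small secreted proteins made mainly by the fat body after wounding, heat or infection. In the fly, upd3 is known as the cytokine that blood cells and damaged tissue release, and vir-1 as a marker of JAK-STAT activity after viral infection.

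No member passed the test against control at any time, with either sex label, and the share of all genes tested that passed was 0% as well. TotM came closest: it had no read in the 3 female-labelled controls and reads in 8 of the 9 female-labelled injured libraries, with its highest level at 2 hr. TotA, TotC and vir-1 were also highest in a 2 hr female-labelled library, but in that library alone, and their other 2 hr libraries lay in or near the control range. The receptor, the kinase, the transcription factor and the inhibitor mostly overlapped their controls. In male-labelled libraries at 1 hr dome was higher in all 3. In female-labelled libraries at 2 and 4 hr Stat92E was lower in all 6. Neither difference passed the test, and the share of all genes that separate in this way was not counted. The ligand upd3 had hardly any reads.

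Total counts ran from 46943 to 1769669 per library, so that 1 read was worth 0.621 to 16.6 CPM (a library's reads scaled to a fixed total, here with TMM factors that make the bulk of genes comparable between libraries), and 4 libraries had totals under 100000. The female labels went against a sex check in 10 of 12 libraries, and the check rests on 1 RNA. The RNA roX1 takes part in dosage compensation in male flies. It lay at 687 to 1020 CPM in the 12 male-labelled libraries and at 699.5 to 1291 CPM in 10 of the 12 female-labelled ones. The other 2 libraries, replicate 2 at 2 hr and replicate 2 at 4 hr, had 5.18 and 73.3 CPM of roX1. The same 2 had the lowest summed level of 10 neuronal genes, at 459.2 and 1135 CPM, against 2177 to 6173 CPM in the other 22 libraries. Groups are therefore called by their labels, female-labelled and male-labelled, and the results that replicate 2 at 2 hr carries are also given without it, an alternative that was in part added after the data were seen. In bulk RNA, fewer cells of a type and less RNA per cell cannot be told apart.

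Genes were tested with edgeR's quasi-likelihood test, with the p-values adjusted (Benjamini-Hochberg) over all genes tested, and a gene was called at an adjusted p under 0.05 with a log2 fold change (log2FC) beyond 1 in either direction. Of the 9 members, 8 had enough reads to be tested in the female-labelled libraries (not upd3) and 7 in the male-labelled libraries and in the fit of all 24 (neither upd3 nor TotM). The number of members called was 0 in each of the 12 comparisons, and the share called among all genes tested was 0% in each as well. TotM had no read in the 3 female-labelled controls, so only injured libraries gave it enough reads to be tested. Its passing below is therefore not separate support for a rise. At an unadjusted p under 0.05 with the same fold limit, 1 of 8 members passed in female-labelled libraries at 1, 2 and 4 hr and over all times, and it was TotM each time. The shares of all 5918 genes that passed this rule were 1.66% at 1 hr, 7.13% at 2 hr, 5.09% at 4 hr and 4.63% over all times. In male-labelled libraries 1 of 7 members, dome, passed it at 1 hr, against 0.916% of the 4474 genes tested. At 2 hr, at 4 hr and over all times 0 of 7 male-labelled members passed, where the shares of all genes were 1.77%, 1.32% and 1.23%.

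**Figure D1:**
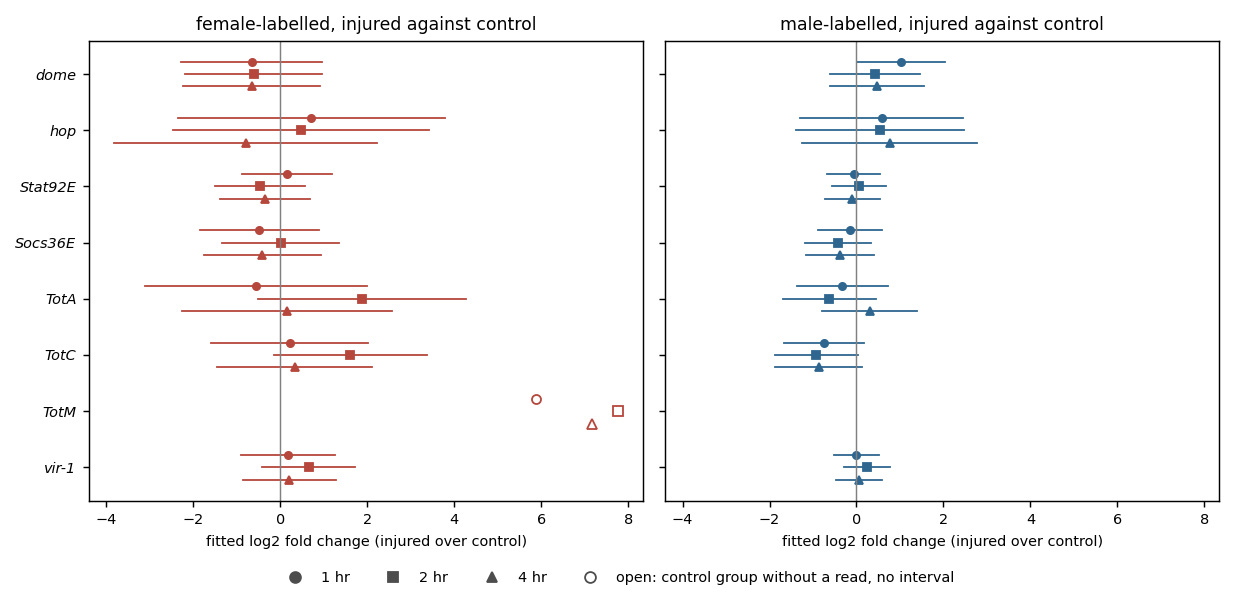
Fitted log2 fold change of each member tested, injured over control, at 1, 2 and 4 hr (x axis), for female-labelled libraries on the left and male-labelled libraries on the right, with lines for 95% intervals of the fit. The points for TotM, at 5.88, 7.77 and 7.17, are open because its controls have no read and no interval can be given, and the only interval that lies wholly on one side of 0 is that of dome in male-labelled libraries at 1 hr.

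The ligand upd3 had 4 reads in all 24 libraries. Of these, 3 were in replicate 3 of the female-labelled 2 hr group (2.24 CPM) and 1 was in replicate 1 of the male-labelled 1 hr group (1.44 CPM). The other 22 libraries had none, controls included, which allows up to 1.98 CPM over the pooled female-labelled controls and up to 3.04 CPM over the pooled male-labelled controls (the level of 3 reads, for counting error only). A level of upd3 below these limits, or a change below them, was not detectable at this depth. The related ligands upd1 and upd2 had 2 and 12 reads in all.

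The receptor gene dome had 114.8, 142.2 and 121.0 CPM in the male-labelled libraries at 1 hr, against 103.7, 18.9 and 46.5 CPM in the male-labelled controls. The groups do not overlap, but the share of all genes that separate in this way was not counted. The 2 lower controls rest on 7 and 4 reads. The log2FC was 1.02 (standard error 0.47, 95% interval 0.02 to 2.03, unadjusted p = 0.0443, adjusted p = 0.999 in edgeR). Without male-labelled control replicate 2, the log2FC was 0.56 (unadjusted p = 0.194), and without control replicate 1 it was 2.08 (unadjusted p = 0.00177). At 2 and 4 hr the male-labelled libraries ran from 49.8 to 123 CPM and overlapped the controls, with log2FCs of 0.42 and 0.47.

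In female-labelled libraries dome was lower in the mean after injury at each time, and no difference passed the test. The 1 hr libraries had 40.7, 30.3 and 102.6 CPM of dome, against 146.9, 111.6 and 15.2 CPM in female-labelled controls, where the lowest value is a single read. The groups overlap through that control, and the 1 hr value of 30.3 CPM itself rests on only 2 reads. Fitted log2FCs of dome were -0.66 at 1 hr, -0.61 at 2 hr and -0.66 at 4 hr, with standard errors of 0.74 to 0.76. The change of dome at 1 hr differed between the labels by a log2 difference of -1.76, female minus male (standard error 0.90, 95% interval -3.62 to 0.10, unadjusted p = 0.0607), which did not pass the test. Among all 5462 genes tested for a difference between the labels at 1 hr, 1.72% had an unadjusted p under 0.05 with a log2 difference beyond 1, and 0 of 7 members did. The gene et, which encodes a receptor related to Domeless and neighbours dome in the reference annotation, had 27 reads in all.

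The kinase gene hop was sparsely covered, with 209 reads in 24 libraries and none in 2 of them. Its libraries ran from 7.99 to 45.5 CPM at 1 hr, 8.95 to 25.9 CPM at 2 hr and 0 to 16.8 CPM at 4 hr in female-labelled flies, against 1.67 to 30.4 CPM in female-labelled controls. All groups overlap. The log2FC of hop lay between -0.80 and 0.71 in female-labelled libraries, with intervals that together span -3.82 to 3.78, so that a change of several fold in either direction was not detectable. In male-labelled libraries hop had log2FCs of 0.58, 0.54 and 0.76 at 1, 2 and 4 hr, and male-labelled control replicate 2 had no hop read.

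Stat92E, the transcription factor of the pathway, was detected in every library at 81.1 to 304 CPM, with a median of 237 CPM. In female-labelled libraries it had 268.7, 303.1 and 218 CPM at 1 hr, 212.9, 81.1 and 219.2 CPM at 2 hr, and 204.2, 156.5 and 184.8 CPM at 4 hr, against 258.1, 231.5 and 227.7 CPM in controls. All 6 libraries at 2 and 4 hr lie below the 3 controls, a separation not counted over all genes. The lowest is replicate 2 at 2 hr, which also had the least neuronal signal. The log2FCs were 0.15 at 1 hr, -0.46 at 2 hr and -0.36 at 4 hr, each with a standard error of 0.48 or 0.49 and an adjusted p of at least 0.878 in edgeR. Without the 2 libraries that stand apart they were 0.18, -0.15 and -0.27. In male-labelled libraries Stat92E averaged 247 ± 4.57 CPM at 1 hr, 261 ± 57.5 CPM at 2 hr and 226 ± 53.0 CPM at 4 hr, against 232 ± 84.3 CPM in controls (SD, n = 3 each). Its male-labelled log2FCs lay between -0.09 and 0.06, with intervals from -0.74 to 0.68.

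Socs36E, the inhibitor that Stat92E itself induces, ran from 45.5 to 294 CPM and overlapped its controls at every time. Female-labelled libraries had 212.1, 45.5 and 106.9 CPM at 1 hr, 150.3, 225.3 and 144.7 CPM at 2 hr, and 179.0, 91.3 and 129.0 CPM at 4 hr, against 79.4, 293.9 and 167.0 CPM in controls. The controls alone span most of that range. The log2FC was 0.00 at 2 hr, with an interval of -1.34 to 1.34. In male-labelled libraries the log2FCs of Socs36E were -0.15, -0.43 and -0.39 at 1, 2 and 4 hr, with intervals that together run from -1.18 to 0.59.

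**Figure D2:**
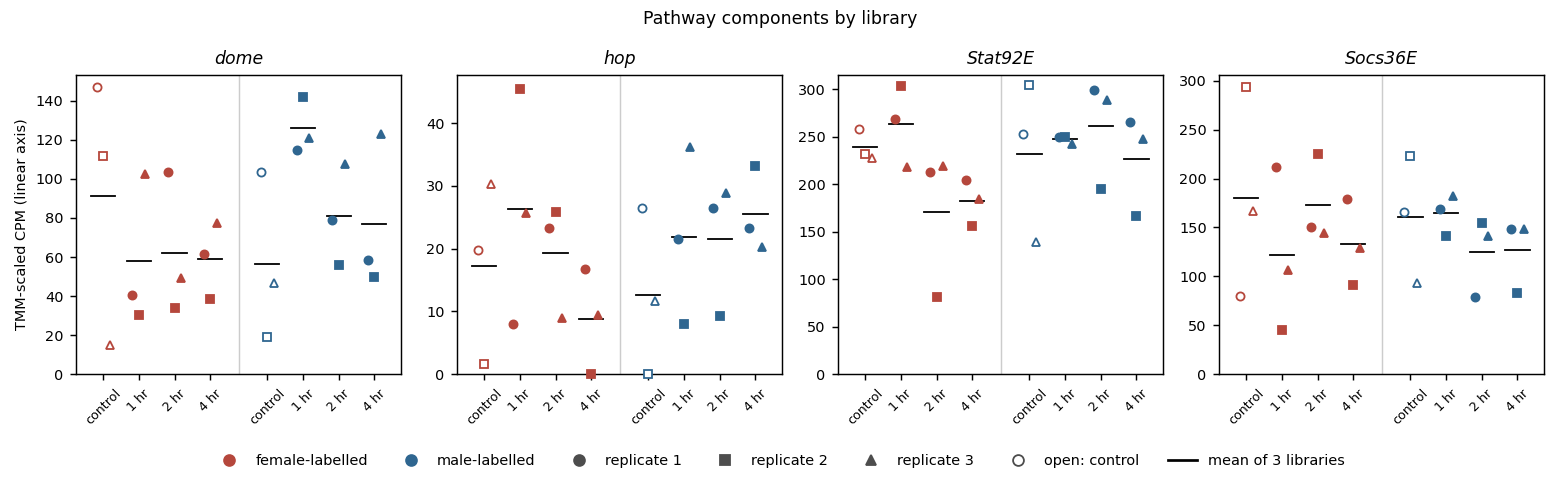
TMM-scaled CPM of dome, hop, Stat92E and Socs36E in each of the 24 libraries (y axis, linear) by sex label and time (x axis), with open symbols for controls and a bar at the mean of 3 libraries. The male-labelled 1 hr libraries of dome, at 114.8 to 142.2 CPM, stand above the 3 male-labelled controls. Stat92E at 2 and 4 hr with the female label lies below its controls, and the other injured groups overlap theirs. The share of all genes that separate in this way was not counted.

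TotM, a secreted Turandot protein gene, had the largest fitted change of the members. In female-labelled libraries it had 23, 0 and 1 reads at 1 hr, 2, 97 and 12 reads at 2 hr, and 1, 3 and 74 reads at 4 hr, against 0, 0 and 0 reads in controls. In CPM the libraries at 2 hr had 3.58, 83.7 and 8.95. The controls had no read, so any library with a read lies above them. In control replicates 1 and 3, 1 read was worth 3.97 and 15.2 CPM, so such levels could be missed there. In each injured group 1 library holds most of the reads: replicate 1 at 1 hr (95.8%), replicate 2 at 2 hr (87.4%) and replicate 3 at 4 hr (94.9%). These are shares of raw reads and depend on depth. At 1 hr replicate 1 had a total of 1683383, beside 55416 and 219707 in replicates 2 and 3. In CPM the 1 hr libraries had 16.7, 0 and 4.28.

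Set against a floor of 3 reads over the pooled female-labelled controls, TotM was at least 7.25-fold higher at 1 hr, at least 18.4-fold higher at 2 hr and at least 12.6-fold higher at 4 hr. These bounds cover counting error in the controls only. Without the library with the most reads, 14 reads at 2 hr gave at least 3.73-fold and 4 reads at 4 hr gave at least 1.03-fold, and 1 read was left at 1 hr, which gives no bound. The depth of the female-labelled controls lies mostly in replicate 2, with a total of 1193051, beside 238289 and 52388 in the other controls.

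The fitted log2FC of TotM was 5.88 at 1 hr, 7.77 at 2 hr and 7.17 at 4 hr, values that depend on the prior count because the control group is empty. The unadjusted p was 0.0484, 0.0116 and 0.0180, and the adjusted p from edgeR was 1.00, 0.535 and 0.929. Over all times together the unadjusted p was 0.0176 (adjusted p = 0.939), and TotM had a read in 8 of 9 injured libraries. Without female-labelled control replicate 2, the deepest control, the unadjusted p was 0.188 at 1 hr, 0.0625 at 2 hr and 0.0904 at 4 hr. When replicate 2 at 2 hr or replicate 3 at 4 hr was left out, TotM no longer passed the filter on low counts and could not be fitted. With no filter, and without replicate 2 at 2 hr, its log2FC at 2 hr was 5.31 (unadjusted p = 0.0233, adjusted p = 1.00 in edgeR).

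In male-labelled libraries TotM had 1, 8 and 4 reads at 1 hr, none at 2 hr, and 0, 0 and 1 reads at 4 hr, against 2, 0 and 0 reads in controls. All 3 libraries at 1 hr have reads, at 1.44, 8.07 and 7.22 CPM, and overlap the control range, whose highest library had 3.77 CPM. The pooled ratio at 1 hr was 2.86, with a 95% counting interval of 0.648 to 26.1. TotM did not pass the filter in these libraries. In a fit with no filter on low counts its male-labelled log2FC at 1 hr was 1.498 (unadjusted p = 0.331).

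The share of TotM among the reads of TotA, TotC and TotM does not depend on how libraries are scaled. With the female label, the 3 libraries of 1 hr had 6.10%, 0% and 4.76%, those of 2 hr had 2.70%, 6.73% and 4.82%, and those of 4 hr had 1.18%, 3.75% and 17.1%, against 0% in each control. Replicate 3 at 4 hr had the highest share, 74 of 433 reads, with an exact 95% interval of 13.7% to 21.0% that lies above the intervals of all 3 libraries at 2 hr. Pooled, the share was 7.69% (6.73% to 8.75%) in the 9 female-labelled injured libraries, against 0 of 286 reads in the controls, which allows up to 1.05%. In the male-labelled injured libraries it was 1.67% (0.919% to 2.79%), against 0.803% (0.0974% to 2.87%) in their controls. These intervals cover counting error only, not the spread between flies, and the reads carried no molecular identifiers.

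**Figure D3:**
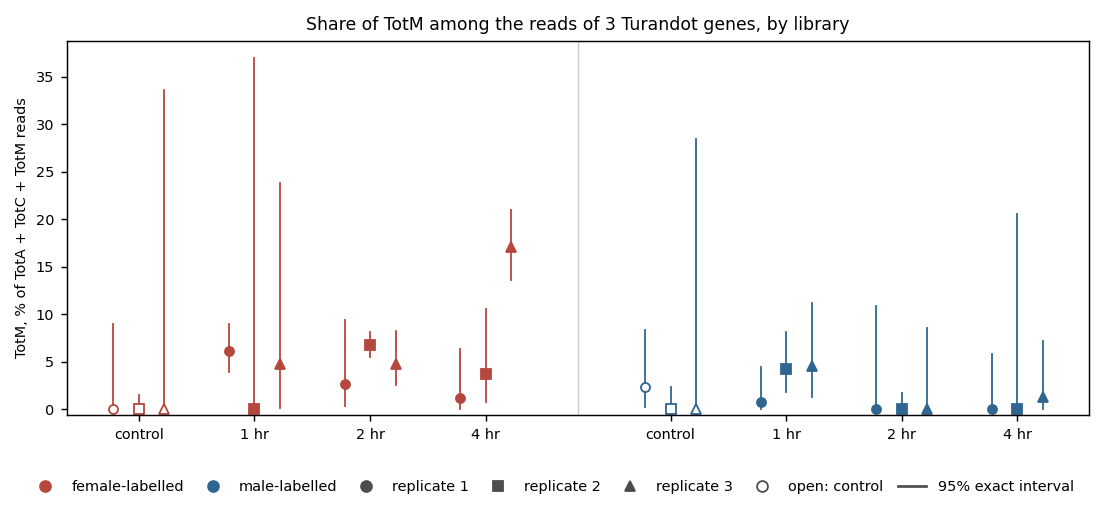
Reads of TotM as a percentage of the reads of TotA, TotC and TotM (y axis) in each of the 24 libraries by sex label and time (x axis), with open symbols for controls and lines for exact 95% intervals. Female-labelled controls lie at 0%, with wide intervals in the 2 shallow ones, and female-labelled replicate 3 at 4 hr stands highest at 17.1%.

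TotA and TotC are close relatives that neighbour each other in the reference annotation, and the methods name HTSeq for counting but not its mode for reads that match both, so their split is uncertain. TotA had 48.3, 406.6 and 63.4 CPM in the female-labelled 2 hr libraries, against 51.6, 44.96 and 60.7 CPM in controls. Only replicate 2 stands well above the controls. The log2FC was 1.88 (standard error 1.12, 95% interval -0.51 to 4.27, unadjusted p = 0.123, adjusted p = 0.845 in edgeR), and without that library it was 0.13. At 1 hr the libraries had 72.6, 0 and 8.6 CPM and at 4 hr 81.1, 3.7 and 86.8 CPM of TotA, with values on both sides of the controls. The lowest values have different depths behind them. The 0 comes from a library of 55416 counts, in which 1 read is worth 15.2 CPM, and the 3.7 CPM from the library with the highest total.

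TotC had 80.5, 753.6 and 113.3 CPM in the female-labelled 2 hr libraries, against 103.2, 153.2 and 75.9 CPM in controls. As for TotA, replicate 2 alone lies above the controls. The log2FC was 1.61 (standard error 0.83, 95% interval -0.16 to 3.37, unadjusted p = 0.0748, adjusted p = 0.792 in edgeR), and it was -0.23 without replicate 2 at 2 hr. At 1 hr TotC had 184.5, 121.3 and 77.0 CPM and at 4 hr 153.8, 44.1 and 221.8 CPM, with log2FCs of 0.21 and 0.32. Without the 2 libraries that stand apart, the 4 hr log2FCs were 0.77 for TotA and 0.75 for TotC, and neither passed the test.

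In male-labelled libraries TotC was within 82.6 to 149.4 CPM in all 9 injured libraries, against 109.4, 339.3 and 93.0 CPM in controls. The high control, replicate 2, sets the difference. Over all times the log2FC was -0.85 (standard error 0.36, 95% interval -1.63 to -0.07, unadjusted p = 0.0300, adjusted p = 1.00 in edgeR), while 2.50% of the 4474 genes tested had an unadjusted p under 0.05 with no limit on the fold. Without male-labelled control replicate 2 it was 0.12 (unadjusted p = 0.693). TotA in male-labelled libraries ran from 21.0 to 116.2 CPM after injury, against 45.3, 75.4 and 34.9 CPM in controls, with log2FCs of -0.33, -0.62 and 0.30 at 1, 2 and 4 hr.

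The change of TotC at 2 hr differed between the labels by a log2 difference of 2.53, female minus male (standard error 1.01, 95% interval 0.45 to 4.61, unadjusted p = 0.0200, adjusted p = 0.850 in edgeR). It was the 1 of 7 members past the unadjusted rule in that comparison, in which 5.44% of all genes tested passed. Without female-labelled replicate 2 at 2 hr the difference was 0.63 (unadjusted p = 0.425). For TotA the same difference was 2.60 (standard error 1.33, unadjusted p = 0.0632), and 0.785 without that library (unadjusted p = 0.517). At 4 hr 0 of 7 members passed the unadjusted rule for a difference between labels, against 6.35% of all genes. Between the female-labelled and male-labelled controls 0 of 7 members passed, against 1.96% of all genes, and the log2 differences of the members lay between -0.72 for TotC and 0.76 for dome.

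The split of reads between TotA and TotC varied among libraries. TotA made up 35.0% of the reads of both in female-labelled replicate 2 at 2 hr (exact 95% interval 32.5% to 37.7%, 1344 reads), near the 37.5% and 35.9% of the other 2 hr libraries with far fewer reads. The pooled share was 35.3% at 2 hr, against 24.8% (19.9% to 30.3%) in female-labelled controls. In female-labelled replicate 2 at 4 hr TotA had 6 of 77 reads (7.79%, 2.91% to 16.2%), while the other 4 hr libraries had 34.5% and 28.1%. In male-labelled control replicate 2, the library with high TotC, TotA made up 18.2% (12.4% to 25.2%).

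vir-1 was read in every library, at 337 to 1315 CPM. Its female-labelled 2 hr libraries had 510, 1315 and 402 CPM, against 504, 597 and 410 CPM in controls. Replicate 2 again stands alone, and the other 2 libraries lie within the control range or just below it. The log2FC was 0.65 (standard error 0.50, 95% interval -0.42 to 1.72, unadjusted p = 0.215), and -0.16 without replicate 2 at 2 hr. At 1 and 4 hr the female-labelled libraries lay between 468 and 633 CPM of vir-1, and in male-labelled libraries its log2FCs were 0.00, 0.24 and 0.05 with intervals that together run from -0.52 to 0.77.

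**Figure D4:**
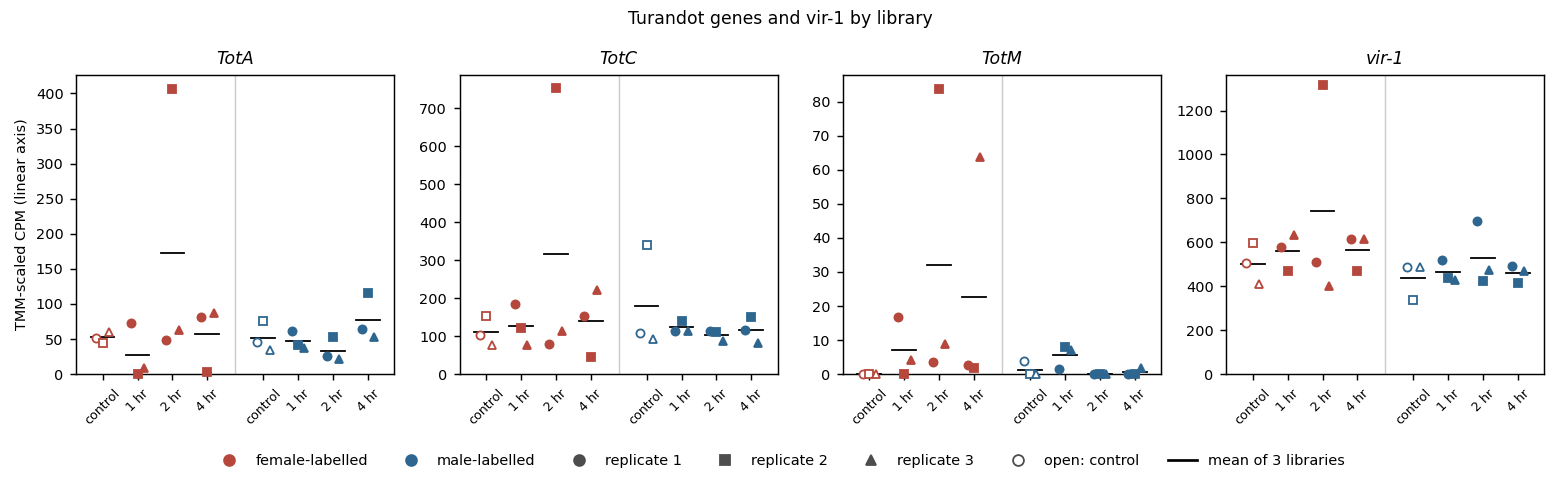
TMM-scaled CPM of TotA, TotC, TotM and vir-1 in each of the 24 libraries (y axis, linear, a scale of its own for each gene) by sex label and time (x axis), with open symbols for controls and a bar at the mean of 3 libraries. Female-labelled replicate 2 at 2 hr is the highest library for all 4 genes, at 406.6, 753.6, 83.7 and 1315 CPM.

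The female-labelled library that was highest for TotA, TotC, TotM and vir-1, replicate 2 at 2 hr, also stood apart in other lists. The summed level of 14 antimicrobial peptide genes, which are made mainly by the fat body in a humoral immune response, was 52456 CPM there, against 461 to 3158 CPM in the other 23 libraries. The summed level of 13 fat body genes was 31857 CPM there, and it was 37823 CPM in replicate 1 at 1 hr and 12429 CPM in replicate 3 at 4 hr, against 4486 to 10605 CPM in the remaining libraries. These 3 libraries are those with the most TotM reads of their groups. Replicate 2 at 2 hr and replicate 1 at 1 hr were also the deepest of their groups, with totals of 1527109 and 1683383. Of the 13 fat body genes, 9 were tested in female-labelled libraries, and 3 (the yolk protein genes Yp2 and Yp3, and fit) passed the unadjusted rule at 2 hr, beside 7.13% of all genes, 1 (Yp2) at 1 hr, beside 1.66%, and 0 at 4 hr, beside 5.09%. Without replicate 2 at 2 hr, 0 of 8 passed at 2 hr, beside 1.82% of all genes. With all female-labelled libraries, the median log2FC of the 9 fat body genes tested was 0.08 at 1 hr, 0.41 at 2 hr and 0.67 at 4 hr. At 2 hr their values ran from -0.93 to 8.36. The larval gene Fbp1 had no read in any library. All 12 antimicrobial peptide genes tested passed the unadjusted rule at 2 hr in female-labelled libraries, beside 7.13% of all genes, and 0 passed the adjusted one. Without replicate 2 at 2 hr, whose sum stands beside 1029 and 1838 CPM in the other 2 hr libraries, 4 of 12 passed, beside 1.82% of all genes. The part of fat body tissue in the Turandot levels was not tested, nor was that of sex. Replicate 2 at 2 hr also had the lowest roX1, 5.18 CPM, so fat body signal and a sex difference cannot be told apart there. Replicate 1 at 1 hr, with the highest fat body sum, had 699.5 CPM of roX1, in the range of the male-labelled libraries. The yolk protein genes were not used as a sex check.

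In the male-labelled libraries the antimicrobial peptide sum was 1091, 1218 and 1085 CPM at 1 hr, against 768, 697.5 and 872 CPM in controls. These groups do not overlap, but how often other gene lists separate in this way was not counted. The 1 hr group is also the only male-labelled one in which all 3 libraries had TotM reads, but having a read depends on depth. The lowest total was 564267 at 1 hr, against 72792 in male-labelled controls, 211541 at 2 hr and 46943 at 4 hr. The fat body sum was 7223 to 7687 CPM at 1 hr, against 4529 to 7423 CPM in male-labelled controls.

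**Figure D5:**
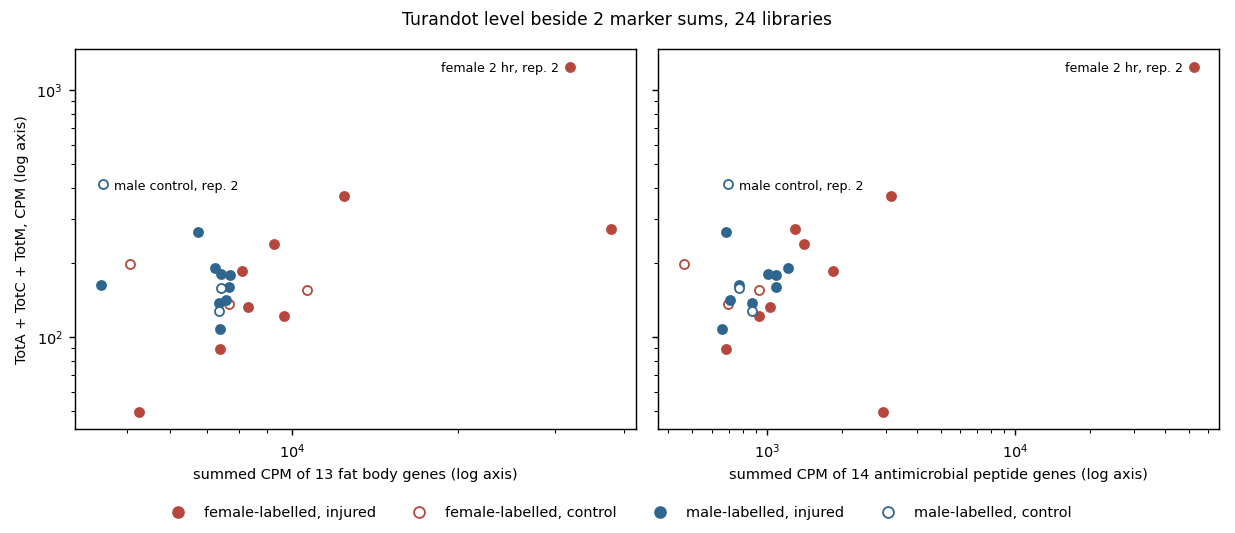
Summed CPM of TotA, TotC and TotM (y axis, log scale) against the summed CPM of 13 fat body genes (left, log scale) and of 14 antimicrobial peptide genes (right, log scale), 1 point for each of the 24 libraries, coloured by sex label, with open symbols for controls. Female-labelled replicate 2 at 2 hr has the highest Turandot sum, 1244 CPM, with the highest antimicrobial peptide sum, and male-labelled control replicate 2 has 415 CPM of Turandot RNA with low values of both lists.

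Other genes of the pathway were described from a list of 21, of which 13 were tested in female-labelled and 10 in male-labelled libraries. None was called at any time. Hrs, an endosomal sorting gene, was the 1 of 13 past the unadjusted rule against control at 2 hr in female-labelled libraries. That share is near the 7.13% of all genes. At 1 and 4 hr 0 passed, beside 1.66% and 5.09% of all genes. In male-labelled libraries 0 of 10 passed at 1, 2 and 4 hr, beside 0.916%, 1.77% and 1.32%. With the female label Hrs had 6, 109 and 31 reads at 2 hr, against 3, 5 and 0 reads in controls. Its log2FC was 2.90 (standard error 1.33, unadjusted p = 0.0490, adjusted p = 0.693 in edgeR). Most of its reads were again in replicate 2, without which the log2FC was 1.47 (unadjusted p = 0.303). Mekk1 was the 1 of 13 past the same rule in the difference between the labels at 2 and 4 hr, female minus male lower. The shares of all genes were 5.44% and 6.35%. It was also the 1 of 13 between the controls, higher with the female label, beside 1.96% of all genes. The median log2FC of the list at 2 hr was 0.16 in female-labelled and 0.14 in male-labelled libraries, beside medians of 0.00 and 0.02 over all genes tested. The medians of the members tested were 0.56 and 0.06 at 2 hr. Without replicate 2 at 2 hr the female-labelled median was -0.16 over the 7 members still tested.

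Of the other Turandot genes, TotB, TotF and TotZ had no read in any library, and TotX had 205. In female-labelled libraries at 2 hr TotX had 4, 94 and 19 reads, against 2, 2 and 0 reads in controls. Most of these reads were again in replicate 2. In CPM the 2 hr libraries had 7.16, 81.1 and 14.2, against 7.94, 1.67 and 0 in controls, and the groups overlap. In male-labelled libraries TotX ran from 0 to 20.25 CPM. The pooled ratio was 14.5 (95% counting interval 5.53 to 54.2), and 4.598 (1.57 to 18.3) without replicate 2. These intervals cover counting error only. The log2FC of 3.38 did not pass the unadjusted rule, and without replicate 2 TotX did not pass the filter on low counts. TotE was not analysed here.

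Across the 24 libraries, the genes whose level ran most like a member's were ND-B12 for dome (Spearman's rho 0.84), Syn2 for TotA (0.79), PTP-ER for hop (0.78), CR45531 for Stat92E (0.76), Rpt3 for vir-1 (0.74), Ddc for TotC (0.73) and CG13397 for Socs36E (0.72), each the highest of 5462 genes. These values describe the same libraries, which differ in depth and composition, and no member was the closest gene of another.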

How the data were processed

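Transcript levels were measured in single fly brains by 3′ mRNA sequencing (QuantSeq FWD), with 3 libraries in each of 8 groups. The authors deposited a table of raw read counts for 16995 genes in 24 libraries, made, per the study's methods and the submitters' processing notes, with CASAVA 1.8.2, STAR 2.4, HTSeq and the dm3 build. Not given in the sources used here are the annotation and HTSeq's handling of reads shared between genes. No use was made of the authors' own comparison tables (fold changes and p-values made with edgeR 3.22.3).

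For the tests, the counts went into edgeR 4.0.16 (R 4.3.3) (TMM scaling, filterByExpr, group means, quasi-likelihood F test). Comparisons with control used the 12 libraries of a sex label, and differences between labels used all 24. Standard errors are Wald errors on the moderated dispersion. Of the 276 pairs of libraries, 0 were identical. The replicate numbers of the titles have no stated meaning. Once group means were removed, libraries with the same number correlated above 0.1 in every pair between male-labelled 1 hr and control libraries (r = 0.14 to 0.39) and between male-labelled 2 hr and control libraries (r = 0.19 to 0.58), and in no other comparison with control. Only for these 2 is the block treated as a pairing, which comes from the data and not from the labels. Alternatives were DESeq2 1.42.0, limma 3.58.1 (voom with sample weights), the likelihood ratio test, other scalings, filters and sets of libraries, a block for the replicate number, and leaving out single libraries. The procedure was tested on simulated data with a smaller spread than these libraries show, so that test does not give its power here. The common biological coefficient of variation was 0.79 in the female-labelled fit, 0.37 in the male-labelled fit and 0.61 over all 24 libraries. Summaries used Python 3.11 and scipy 1.17.1.

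All 9 members were matched by symbol, and all are named. Of the other lists, genes past the unadjusted rule against control are named in the text for the pathway and fat body lists. The members and lists were chosen with earlier results of these data known. Promoter and protein sequences were not analysed here. Neighbouring genes were read from the RefSeq annotation of a later genome release, so no coordinates are given.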

Additional observations from a re-analysis of the deposited data

Results flagged for a closer look

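At 2 hr, TotM lay above the control mean in all 3 female-labelled libraries and below it in all 3 male-labelled libraries, by a mean of 32.1 CPM and -1.26 CPM from their own controls. This pattern was close to fixed, since the female-labelled control mean was 0 and any read lies above it. The male-labelled control mean was 1.26 CPM. In male-labelled replicates 1 and 3 at 2 hr, 1 read was worth 4.40 and 2.62 CPM, so no read there lies below it. TotM did not pass the filter on low counts in the fit of all 24 libraries, so the difference between the labels was not tested there. In the fit with no filter, the log2 difference at 2 hr was 10.77 (unadjusted p = 0.000769, adjusted p = 0.163 in edgeR), a value that depends on the prior count, since the female-labelled controls and the male-labelled 2 hr libraries have no TotM read. Without female-labelled replicate 2 at 2 hr it was 8.38 (unadjusted p = 0.00495, adjusted p = 1.00 in edgeR). Both fits use the values by which TotM was flagged, so their p-values are not separate support. The male-labelled controls hold 2 reads of TotM, both in 1 library, and roX1 goes against 10 of the 12 female labels.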

How the results depend on the processing

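No member was called under any of the 227 fits of a comparison with an alternative setting, and the smallest adjusted p of a member among them was 0.0579, for TotM at 2 hr in female-labelled libraries with no filter on low counts. In an alternative added after the data were seen, with no filter and without both libraries that stand apart, the adjusted p of TotM at 4 hr was 0.0567. With the unadjusted p instead, 1 member, TotM, passed in female-labelled libraries at 1, 2 and 4 hr and over all times. The shares of all genes there were 1.66%, 7.13%, 5.09% and 4.63%, and TotM passed the filter only through injured libraries. In male-labelled libraries at 1 hr dome passed, beside 0.916% of all genes. For the difference between the labels at 2 hr it was TotC, beside 5.44%. Over all genes at 2 hr with the female label, 0 were called by the quasi-likelihood test, 26 by DESeq2, 28 by the likelihood ratio test, 95 with no filter, 9 with all 24 libraries in the fit, and 20 without replicate 1 at 2 hr. For the difference between the labels at 2 hr these counts were 0, and 4 by DESeq2, 2 by the likelihood ratio test and 27 with no filter. The log2FC of TotC at 2 hr with the female label was -0.24 without the 2 libraries that stand apart, and from -0.23 to 2.05 with single libraries left out. That of vir-1 was -0.17 without the same 2, -0.14 with voom and sample weights, and from -0.16 to 0.98 with single libraries left out. That of TotC over all male-labelled times was from -1.19 to 0.12 with single libraries left out. The cause of these reversals was not tested beyond the libraries named.

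With the replicate number as a block, the log2FC of dome at 1 hr in male-labelled libraries was 1.06 (unadjusted p = 0.0278, adjusted p = 0.999), and that of TotM at 2 hr in female-labelled libraries was 7.69 (unadjusted p = 0.0255). The block changed no call, and no group's libraries each correlated best with their own number. Group means in CPM of the deposited totals were 0.785 to 1.17 times the TMM-scaled ones. With voom and sample weights the log2FC of TotM at 2 hr was 1.45 (unadjusted p = 0.265). Depth limits upd3, hop and TotM most.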
